A study of Mus musculus with 4 samples.

Results

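The 9 genes described here are mouse mucins, found by their gene symbols among the 45777 genes measured. Of them, 5 encode membrane-bound mucins (Muc1, Muc4, Muc13, Muc16 and Muc20) and 4 encode gel-forming mucins (Muc2, Muc5ac, Muc5b and Muc6). The members were chosen by name, and in part selected on the measured values of Muc13, whose counts in these same libraries were known to be higher in the Smad4 knockouts, so the Muc13 difference is given as a description with no test. All 9 symbols were found, each as a single protein-coding gene.

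Mucins are long proteins whose serine- and threonine-rich repeats carry dense O-linked sugars. Membrane-bound mucins are anchored in the apical membrane, where they form the glycocalyx and can take part in signalling, and gel-forming mucins are secreted and link through their ends into the mucus gel. In the normal stomach Muc5ac comes from surface mucous cells and Muc6 from neck and gland cells, Muc2 is the gel-forming mucin of intestinal goblet cells, and Muc13 is typical of the intestinal surface.

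RNA sequencing of total RNA compared 2 groups of mouse gastric organoids, which are stomach epithelial cells grown as self-organising structures. The Control group consists of organoids with Cdh1 and Trp53 knocked out, and the Smad4 Knockout group carries the knockout of Smad4 in addition to those of Cdh1 and Trp53, so all 4 libraries share the loss of Cdh1 (E-cadherin) and Trp53 (p53) by the design text. Each group has 2 libraries from separately named lines, CPE (Control 1) and CPG (Control 2), CPS1 (Smad4 Knockout 1) and CPS4 (Smad4 Knockout 2). Lines were kept in medium with L-WRN cell supernatant and serum, and spent the last 2 days without either, in medium with B27 and N2. The labels do not say how the knockouts were made, or whether lines came from separate animals or were single clones, so p-values measure the spread between these libraries, which may be technical.

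Depth ranged from 85649781 to 99845702 counts per library. Smad4 was at 94.5 and 103 CPM (read counts scaled per 1e+06 of the library) in Control libraries, and at 54.4 and 52.9 CPM in Smad4 Knockout libraries. Its mRNA was thus lower in both libraries labelled as knockouts, but not absent. Mitochondrial genes took from 0.941% to 1.48% of the counts, with the highest share in Smad4 Knockout 2. Epithelial keratins were abundant in every library, with a mean of 3126 TPM for Krt8 and 2828 TPM for Krt18, where TPM is the deposited level per unit of transcript length.

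The sequences before the start sites of 3 members are shown because the results turn on them. Muc13 is the member chosen for its values, Muc1 is the most abundant mucin and Muc2 is the member whose knockout libraries lie furthest apart. They come from RefSeq on GRCm38.p6, the assembly also called mm10, in which 7 of the 9 members had an entry, and run 5′ to 3′ on the strand of the gene. Capitals mark matches, on either strand, to 5 strings. The SMAD box was searched as CAGAC, a string that the DNA-binding domain of SMAD proteins recognises. A general promoter element, the GC box, was searched as GGGCGG. For the TATA box, where the basal machinery binds, the string was TATAAA. The site of the intestinal CDX factors was taken as TTTATG. Last, for the nuclear receptor HNF4, the string was CAAAGTCCA.
Muc13, upstream start, chr16:33793787-33794036, plus strand: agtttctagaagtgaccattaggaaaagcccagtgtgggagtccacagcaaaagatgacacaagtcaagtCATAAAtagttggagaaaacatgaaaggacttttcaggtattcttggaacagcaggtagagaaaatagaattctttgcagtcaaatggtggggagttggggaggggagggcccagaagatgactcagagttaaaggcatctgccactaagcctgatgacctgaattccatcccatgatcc
Muc13, downstream start, chr16:33794239-33794366, plus strand, without bases that GENCODE M21 places in an exon of Muc13: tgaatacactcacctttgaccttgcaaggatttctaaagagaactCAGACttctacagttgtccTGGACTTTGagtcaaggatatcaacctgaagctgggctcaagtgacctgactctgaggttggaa
Muc1, chr3:89228806-89229055, plus strand: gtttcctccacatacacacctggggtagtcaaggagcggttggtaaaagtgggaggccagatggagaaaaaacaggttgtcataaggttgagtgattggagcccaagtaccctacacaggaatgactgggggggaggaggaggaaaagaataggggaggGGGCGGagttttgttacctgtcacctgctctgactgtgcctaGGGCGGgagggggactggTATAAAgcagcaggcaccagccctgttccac
Muc2, chr7:141690090-141690339, plus strand: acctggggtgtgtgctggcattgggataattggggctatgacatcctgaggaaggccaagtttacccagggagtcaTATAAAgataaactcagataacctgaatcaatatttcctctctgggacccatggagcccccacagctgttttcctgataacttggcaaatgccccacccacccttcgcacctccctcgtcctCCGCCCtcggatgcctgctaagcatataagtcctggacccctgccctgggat

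The 2 start sites of Muc13 differ in these letters. The window before the upstream start held 1 CDX site and no SMAD box, GC box, TATA box or HNF4 site, and the window before the downstream start held 1 SMAD box and 1 HNF4 site. The Muc1 window held 2 GC boxes and a TATA box at position -31 from the start. The Muc2 window had a TATA box match at -174 and a GC box at -52. Over all 32851 promoter windows of 250 bases, 42.2% held a SMAD box, 32.7% a GC box, 12.4% a TATA box, 10.8% a CDX site and 0.384% an HNF4 site. No 2 of these matches overlapped in the windows shown. GENCODE M21 also places exon sequence of another gene, Gm15657, within the 250 bases before the downstream start of Muc13. Of the members not shown, Muc4, Muc20 and Muc6 each held 1 SMAD box, and Muc16 held none. Strings for other factors were also searched and are not marked. A match describes the letters only, and which Muc13 start was in use was not measured.

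Muc13, a small membrane-bound mucin with a short repeat domain, had 45 and 44 counts in Control 1 and Control 2, then 518 and 1732 counts for Smad4 Knockout 1 and Smad4 Knockout 2. On the scaled level that was 0.459 and 0.475 CPM for Control, then 5.99 and 17.9 CPM for Smad4 Knockout. The controls lay close together, both knockout libraries lay above them, and Smad4 Knockout 2 was 2.98-fold above Smad4 Knockout 1. The group means were 0.467 ± 0.0108 CPM and 11.9 ± 8.40 CPM (SD, n = 2 each), and the log2 fold change from edgeR's model was 4.67. It was 3.69 when Smad4 Knockout 2 was left out, and 5.25 when Smad4 Knockout 1 was left out. Relative to the control mean, Smad4 Knockout 1 was 12.8-fold higher and Smad4 Knockout 2 was 38.3-fold higher. In bulk RNA, more cells of a type and more RNA per cell cannot be told apart. Muc13 lies on chromosome 16 from 33794037 to 33819929. The RefSeq span of a lncRNA, Gm15658 (33785697 to 33796139), includes that start, and Gm15658 had 0 counts in 3 libraries and 0.299 CPM in Smad4 Knockout 2.

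Muc13 changed its place among the mucins. In TPM it was at 0.238 and 0.261 in the controls, below Muc1, Muc4 and Muc20, and it reached 3.58 and 10.4 with Smad4 knocked out. Among the 9 genes it ranked 4 in each control, and 3 and 2 in the knockouts, passing Muc4 in Smad4 Knockout 2. Muc1 exceeded Muc13 in TPM by 384-fold and 484-fold in the controls, by 38.5-fold in Smad4 Knockout 1, and by only 10.1-fold in the other knockout. These ratios compare genes within a library and so do not depend on how libraries are scaled.

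**Figure D1:**
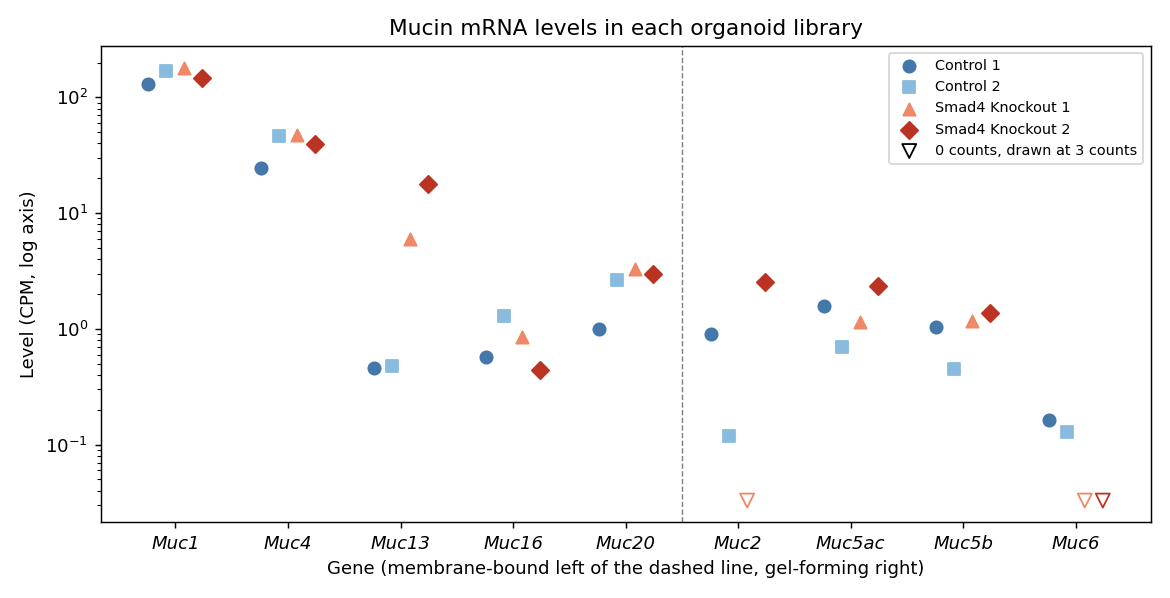
Level of each mucin (CPM, log axis) in the 4 libraries, with membrane-bound genes left of the dashed line and gel-forming genes right of it, where open triangles mark 0 counts drawn at 3 counts. Muc13 is the gene with both knockout libraries, at 5.99 and 17.9 CPM, far above both controls, while Muc1 stays between 131 and 181 CPM.

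Muc1, whose cleaved extracellular part sits on a signalling tail in the membrane, was the most abundant mucin in every library. It had 131 and 170 CPM in Control libraries, then 181 and 148 CPM in Smad4 Knockout libraries, so the groups overlapped. Its log2 fold change was 0.12 (95% interval from -0.28 to 0.53, edgeR adjusted p = 0.975). Without Control 1 it was -0.049, and without Smad4 Knockout 1 it was -0.03. In TPM, Muc1 alone made up 95.5% and 93.4% of the summed membrane-bound mucins for Control, then 91.4% and 85.5% for Smad4 Knockout. The sum of the 5 membrane-bound mucins came to 95.5 and 135 TPM for Control, then 151 and 123 TPM for Smad4 Knockout. That sum overlapped between the groups, as Muc1 did. Without Muc1 the sum came to 4.27 and 8.95 TPM for Control, then 13.0 and 17.7 TPM for Smad4 Knockout. That gap rests on Muc13, the gene chosen for its values. Without Muc1 and Muc13 the other 3 genes summed to 4.03 and 8.69 TPM for Control, then 9.40 and 7.38 TPM for Smad4 Knockout, and the groups overlapped.

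Muc4, a very large membrane-bound mucin that can bind the receptor ERBB2, was the other abundant member. It had 24.6 and 46.8 CPM in Control libraries, then 47.7 and 39.5 CPM in Smad4 Knockout libraries. Control 1 was the low library, and the other 3 lay close together. The log2 fold change was 0.29 (95% interval from -0.44 to 1.02, edgeR adjusted p = 0.958), and it was -0.10 without Control 1 and 0.82 without Control 2.

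Muc20, a membrane-bound mucin that can bind the receptor MET, was also lowest in Control 1, at a far lower level. It had 1.0 and 2.62 CPM in Control libraries, then 3.26 and 3.0 CPM in Smad4 Knockout libraries. Both knockout libraries lay above both controls, but Control 2 was close to them and Control 1 stood apart. The log2 fold change was 0.79 (95% interval from -0.36 to 1.94, edgeR adjusted p = 0.857), and it was 0.26 without Control 1 and 1.64 without Control 2.

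Muc4 and Muc20 overlap on chromosome 16, on opposite strands. The last exon of Muc20 (chr16:32777419-32779146 in GENCODE M21, minus strand) covers 3 exons of Muc4, and the shared 381 bases are 3.38% of the main Muc4 transcript and 10.4% of that of Muc20. If Muc4 reads were spread evenly over its transcript, 81.4 and 147 of them would fall there for Control, then 139 and 129 for Smad4 Knockout, beside whole Muc20 counts of 98, 243, 282 and 291. The library kit keeps the strand, but the strand setting used for counting has no entry in the labels or processing notes. Without it the reads of these genes cannot be told apart in the shared part, and its share in the Muc20 values was not tested.

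Muc16, the very large mucin that carries the CA125 antigen and binds mesothelin, was near the lower limit of measurement. It had 0.572 and 1.29 CPM in Control libraries, then 0.845 and 0.444 CPM in Smad4 Knockout libraries, with counts from 43 to 120. The groups overlapped, with the highest value in Control 2 and the lowest in Smad4 Knockout 2. The log2 fold change was -0.54 (95% interval from -1.99 to 0.92, edgeR adjusted p = 0.963), and 0.17 without Control 2. Its ligand mesothelin was abundant, as Msln had 898 and 933 CPM in Control libraries, then 795 and 695 CPM in Smad4 Knockout libraries.

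**Figure D2:**
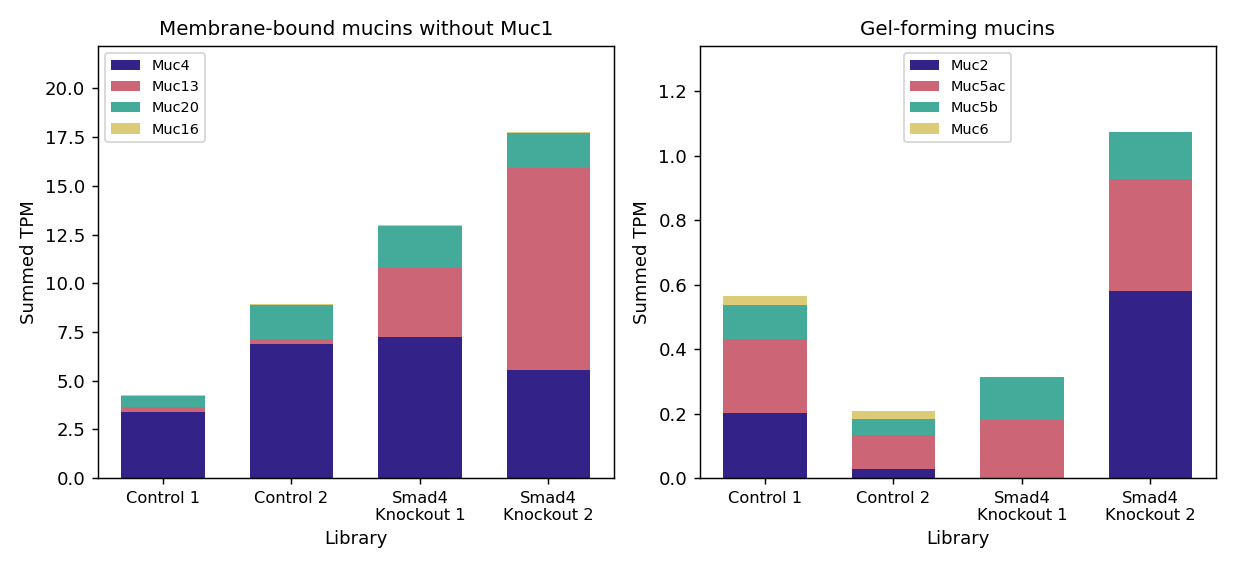
Summed TPM of the membrane-bound mucins other than Muc1 (left) and of the gel-forming mucins (right) in each library, stacked by gene on linear axes from 0. The left sum runs from 4.27 to 17.7 TPM and the share of Muc13 is visible in the knockouts, while the right sum stays at or below 1.07 TPM and Muc2 fills much of it in Smad4 Knockout 2.

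The gel-forming mucins were nearly silent in all 4 libraries. Their sum came to 0.565 and 0.207 TPM for Control, then 0.314 and 1.07 TPM for Smad4 Knockout, and the membrane-bound sum exceeded it by 114-fold to 652-fold. The 4 genes lie side by side on chromosome 7, in the order Muc6, Muc2, Muc5ac and Muc5b, with gaps of 34.9, 34.3 and 19.8 kb. Mucin repeats are hard to place with short reads, so counts in them are uncertain where reads were shared.

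Muc5ac, the main mucin of the gastric surface, had 155 and 64 counts in Control libraries, then 99 and 228 counts in Smad4 Knockout libraries. That corresponds to 1.58 and 0.690 CPM against 1.15 and 2.35 CPM, with the highest value in Smad4 Knockout 2 and the lowest in Control 2. The log2 fold change was 0.62 (95% interval from -0.72 to 1.96, edgeR adjusted p = 0.938), and it was 0.03 without Smad4 Knockout 2. In TPM it did not exceed 0.347 in any library.

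Muc5b, a gel-forming mucin best known from airway and salivary glands, had 1.04 and 0.453 CPM in Control libraries, then 1.17 and 1.37 CPM in Smad4 Knockout libraries. The knockouts lay above both controls, but the counting interval of Control 1 overlapped those of both knockouts. The log2 fold change was 0.76 (95% interval from -0.47 to 2.00, edgeR adjusted p = 0.880), and 0.29 without Control 2. Muc5ac and Muc5b shared the low library among the controls, Control 2, which was the higher control for Muc1, Muc4, Muc16 and Muc20.

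Muc2 differed most within the groups. Its counts were 89 in Control 1, 11 in Control 2, 0 in Smad4 Knockout 1 and 245 for the other knockout. The 95% counting intervals were 71.5 to 110 for Control 1 and 5.49 to 19.7 for Control 2, and they do not overlap each other or the interval of 215 to 278 for Smad4 Knockout 2. The interval for the count of 0 in Smad4 Knockout 1 reached 3.69 counts. With a floor of 3 counts set there, Smad4 Knockout 2 was 72.8-fold above Smad4 Knockout 1, a gap within 1 genotype. That ratio uses the measured value of Smad4 Knockout 2 and is not a lower bound. Between the genotypes edgeR gave an adjusted p of 0.977. Intervals and floors cover counting error only.

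Muc6, the mucin of gastric glands, had 16 and 12 counts in Control libraries and 0 counts in both knockout libraries. With a floor of 3 counts set in each knockout library, the mean of the controls, 0.146 CPM, was 4.46-fold higher. That ratio uses the measured control values and is not a lower bound. The groups did not overlap, and the edgeR adjusted p was 0.677. Muc6 passed the filter on low counts through the controls alone, at a level where any such gene has to differ between the groups.

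With edgeR's quasi-likelihood test, no gene of 18115 tested was called at an adjusted p of 0.05, which is 0.0% in each direction, and so none of the 8 members other than Muc13 was. At an unadjusted p under 0.05, 603 genes were higher (3.33%) and 550 lower (3.04%), and of these 8 members only Muc6 was among them. DESeq2 called 96 genes higher (0.53%) and 31 lower (0.171%), and none of the 8 members. Groups did not overlap for 2 of these 8 members on the higher side (Muc20 and Muc5b) and for 1 on the lower side (Muc6). Among all genes tested 18.2% did not overlap on the higher side and 18.6% on the lower side, 36.9% in all. Nothing is read from the count of members, since Muc6 passed the filter through the controls alone. All 9 members passed the filter on low counts.

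**Figure D3:**
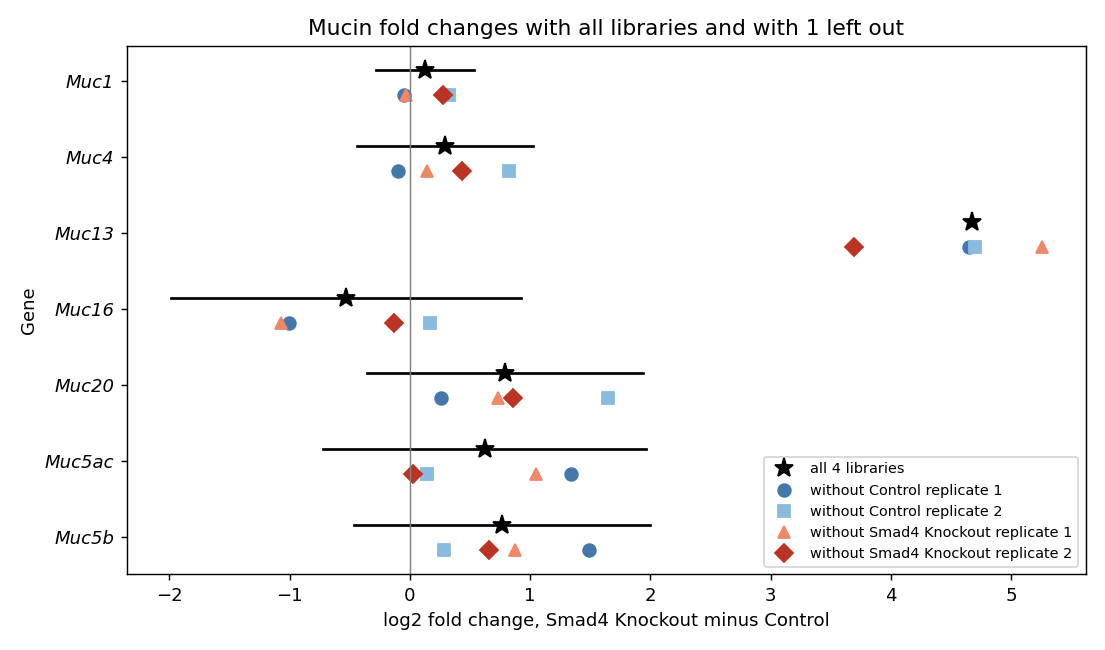
Log2 fold change (Smad4 Knockout minus Control) of 7 mucins, with stars for all 4 libraries, bars for 95% intervals of the 6 genes tested, and coloured markers for the fit with 1 library left out. Muc13 stays between 3.69 and 5.25, and the bars of the other 6 genes cross 0, as do the points of Muc1, Muc4 and Muc16. Muc2 and Muc6 are left out because libraries at 0 counts give no bounded fold change.

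In TPM per group, the order in the controls was Muc1 (109 ± 24.8), Muc4 (5.15 ± 2.48), Muc20 (1.15 ± 0.778), Muc13 (0.249 ± 0.0167), Muc5ac (0.167 ± 0.0861), Muc2 (0.116 ± 0.124), Muc5b (0.0785 ± 0.0408), Muc16 (0.0564 ± 0.0335) and Muc6 (0.0246 ± 0.00238; SD, n = 2 throughout). The 3 steps from Muc1 down to Muc13 were each larger than both SDs, and from Muc13 to Muc6 neighbours lay within the larger of their SDs. In the knockouts the order was Muc1 (121 ± 23.3), Muc13 (6.97 ± 4.80), Muc4 (6.40 ± 1.18), Muc20 (1.95 ± 0.229), Muc2 (0.291 ± 0.411), Muc5ac (0.264 ± 0.117), Muc5b (0.139 ± 0.00869), Muc16 (0.0398 ± 0.0196) and Muc6 at 0. There Muc13 and Muc4 lay within their SDs of each other, and so did Muc2 and Muc5ac, while the other steps from Muc1 to Muc16 exceeded both SDs.

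The genes whose pattern over the 4 libraries was most like that of Muc13 were Cbln1, Tff3 and Crnn, at root mean square differences of 0.70, 0.84 and 0.85 in centred log2 CPM, against a spread of 2.27 for Muc13 itself. Tff3, a goblet cell trefoil peptide, had 0.949 and 0.259 CPM in Control libraries, then 3.05 and 8.95 CPM in Smad4 Knockout libraries. Cbln1, a secreted synapse organiser, had 0.133 and 0.183 CPM, then 1.23 and 14.2 CPM. Crnn, a squamous epithelial protein, had 0.755 and 0.388 CPM, then 1.96 and 9.42 CPM. In all 3 the highest library was Smad4 Knockout 2, as for Muc13, which follows from choosing genes by likeness to its pattern. The search covered 12126 tested genes whose mean reached 1 CPM, predicted genes left out.

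The tested genes of proteins that pack mucins and share the mucus gel had higher mRNA levels in both knockouts, though no member passed the test. Of 13 listed genes 10 were tested, and in all 10 both knockouts lay above both controls, beside 18.2% of all genes tested. The median of the list, on the log2 scale, was 1.33, against -0.00 over all genes, and 0 members were called (0.0% of all genes). Dmbt1, a mucus scavenger protein, had 44.5 and 27.9 CPM in Control libraries, then 84.7 and 97.8 CPM in Smad4 Knockout libraries (log2 fold change 1.33, SE 0.23, edgeR adjusted p = 0.677). The summed level of the list came to 284 and 164 TPM for Control, then 501 and 631 TPM for Smad4 Knockout, and Retnlb had 0 counts in all libraries. The median was 0.96 without Smad4 Knockout 2. The list was chosen with earlier results of these libraries known, so its direction is not independent evidence.

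Summed levels of goblet, enterocyte and surface mucous markers were higher in both knockouts, but not every marker was. Both knockouts lay above both controls for 4 of 6 tested goblet markers. The same held for 2 of 4 tested enterocyte and 2 of 4 tested surface mucous markers, beside 18.2% of all genes tested. Of all 18115 genes tested, 8974 lay above 0. Of 8 goblet cell markers 6 were tested and 6 lay above 0, with a summed level of 125 and 48.4 TPM for Control, then 224 and 272 TPM for Smad4 Knockout, and Retnlb at 0 throughout. The largest part was Clca1, at 184 and 63.0 CPM, then 291 and 345 CPM, and Fcgbp, at 71.7 and 14.4 CPM, then 145 and 145 CPM. Of 9 enterocyte markers 4 were tested and 4 lay above 0, with sums of 310 and 219 TPM against 426 and 612 TPM, led by Lgals4 and Cdh17, while Fabp1, Apoa4 and Sis had 0 counts in all libraries. Of 5 surface mucous markers 4 were tested and 3 lay above 0, with sums of 121 and 91.8 TPM against 148 and 267 TPM. The remaining marker was listed as Dpcr1, an older symbol of Mucl3, and was not matched by name. The counts and sums of this list therefore leave it out. Mucl3 had 11.9 and 11.8 CPM in Control libraries, then 9.80 and 6.33 CPM in Smad4 Knockout libraries. Its log2 fold change was -0.56 (SE 0.24), on the opposite side from most of this list. Tff1 and Psca had the highest levels in this list, but Psca overlapped between the groups and had a log2 fold change of -0.19, while Tff1 had 24.7 and 16 CPM, then 31.6 and 61.4 CPM, and Gkn1 had 2.95 and 2.54 CPM, then 5.87 and 19.97 CPM. The share of mitochondrial counts was also highest, at 1.48%, in the library with the most Muc13. It was 0.954% in Smad4 Knockout 1, and 0.941% and 1.18% in Control libraries. The part of these markers and of RNA quality in the Muc13 difference and in the packaging list was not tested. Of the 8 goblet markers, 6 are also members of the packaging list, as is Tff1 of the surface mucous markers.

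Of 5 mucous neck and gland markers Aqp5, Tff2 and Cftr were well detected, while Bpifb1 and A4gnt were near or at 0. Genes of chief, parietal and endocrine cells were low or at 0. Of the mucous neck and gland markers 2 of 4 tested lay above 0, with sums of 271 and 278 TPM for Control, then 341 and 278 TPM for Smad4 Knockout, mainly Aqp5 and Tff2, and A4gnt had 0 counts. The defining chief cell genes Pgc and Cblif, the parietal gene Atp4b and 4 of 5 endocrine genes had 0 counts in all libraries, with sums of at most 0.629 TPM for chief, 1.99 TPM for parietal and 0.0414 TPM for endocrine markers. Tuft markers summed to between 9.96 and 12.6 TPM, squamous markers to between 15.8 and 23.1 TPM, with the highest sum in Smad4 Knockout 2, and immune markers to between 4.52 and 5.19 TPM. Fibroblast markers (at most 0.937 TPM) and endothelial markers (at most 1.59 TPM) were near 0, and epithelial markers summed to between 8764 and 9405 TPM. Atp4a, the other subunit of the parietal acid pump, had 3.91 and 4.02 CPM in Control libraries, then 3.60 and 3.54 CPM in Smad4 Knockout libraries. Set beside the label of gastric organoids, the gastric genes Tff1, Tff2, Gkn1, Psca and Aqp5 were expressed. Gkn2 had a mean of 1.21 TPM, Bpifb1 had a mean of 0.146 TPM and A4gnt had 0 counts. Muc5ac and Muc6 did not exceed 0.347 TPM.

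Transcription factors of mucous cells were mixed. Of 19 tested genes 13 lay above 0 and 6 below, with a median log2 fold change of 0.18 and 0 called. Hnf4g, an intestinal nuclear receptor, had 2.51 and 2.81 CPM in Control libraries, then 5.02 and 8.21 CPM in Smad4 Knockout libraries (log2 fold change 1.32, SE 0.30). Elf3, an epithelial factor, had 72.7 and 74.1 CPM, then 88.8 and 119.9 CPM (0.51, SE 0.16). On the lower side, Sox2, a foregut factor, had a log2 fold change of -0.20 (SE 0.13). The edgeR adjusted p of these 3 genes was at least 0.677.

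Enzymes that build O-linked sugars on mucins were also mixed. Of 20 tested 11 lay above 0 and 9 below, with a median log2 fold change of 0.15 and 0 called. Fut2, which adds the terminal fucose of gastric mucins, had 49.3 and 42.8 CPM in Control libraries, then 63.6 and 99.6 CPM in Smad4 Knockout libraries (log2 fold change 0.82, SE 0.22). Galnt7 had a log2 fold change of 0.48 (SE 0.13). Galnt10 (-0.41, SE 0.14) and Gcnt1 (-0.26, SE 0.12) lay on the lower side. St6galnac1 and A4gnt, which caps the sugars of gland mucins, had 0 counts in all libraries. The median was -0.01 without Control 2 and 0.03 without Smad4 Knockout 2.

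Granule secretion genes showed no common direction, with 7 of 13 above 0, a median of 0.04 and 0 called. Rab27a, a GTPase of secretory granules, had 7.0 and 5.60 CPM in Control libraries, then 10.7 and 18.3 CPM in Smad4 Knockout libraries (log2 fold change 1.20, SE 0.29), and Scin, an actin-severing protein, had 5.95 and 6.97 CPM, then 4.47 and 2.04 CPM (-0.99, SE 0.39). Snap23 had a log2 fold change of 0.24 and Unc13d of -0.37. Among binding partners and sheddases of membrane-bound mucins 5 of 11 lay above 0, with a median of -0.08 and 0 called. The examples named by rule were Erbb3 (0.24, SE 0.11), Erbb2 (0.17, SE 0.14), Msln (-0.30, SE 0.11) and Mmp14 (-0.29, SE 0.11).

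Among 14 other mucin and mucin-like genes, 11 were found, 5 were tested, 3 of these lay above 0, and 0 were called. Cd164, a sialomucin, was the most abundant, with 163 and 176 CPM in Control libraries, then 192 and 188 CPM in Smad4 Knockout libraries (log2 fold change 0.16, SE 0.10). Parm1 had a log2 fold change of 0.32 (SE 0.26). Mcam had 13.9 and 12.9 CPM, then 10.2 and 6.45 CPM (-0.68, SE 0.25), and Mucl3 at 11.9 and 11.8 CPM, then 9.80 and 6.33 CPM (-0.56, SE 0.24). Muc3, Muc3a, Muc15, Mucl1, Mucl2 and Emcn had 0 counts in all libraries, so the intestinal Muc3 was not detected at a depth where Muc13 was. The list median was 0.16, and it was -0.01 without Control 1 and -0.04 without Smad4 Knockout 2.

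**Figure D4:**
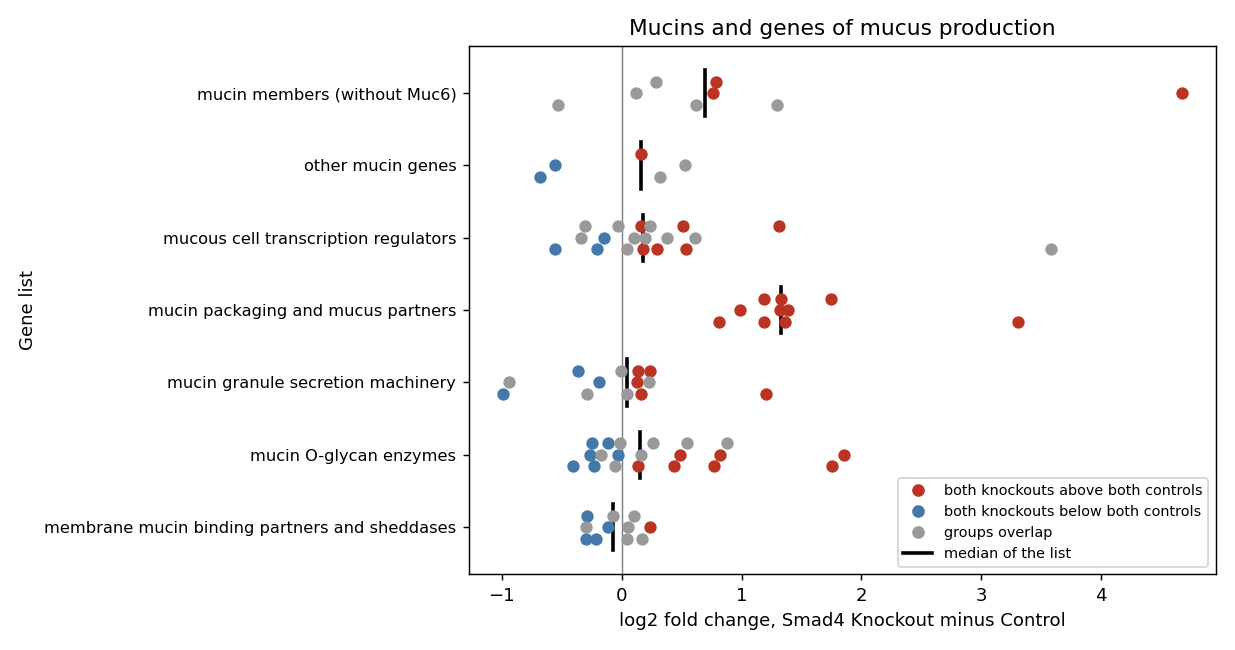
Log2 fold change (Smad4 Knockout minus Control) of each tested gene in 6 lists of mucus production and in the mucin set without Muc6. Points are red or blue where both knockouts lie above or below both controls, and grey where the groups overlap, with a bar at each list's median. Muc6, which had 0 counts in both knockouts, is not drawn and not in the median of the mucin set. All 10 points of the packaging list are red, with a median of 1.33, and the other 5 lists straddle 0.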

How the data were processed

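Total RNA of 4 organoid libraries was prepared with a stranded Illumina kit that removes ribosomal RNA, per the labels' protocols. Tools listed in the submitters' processing notes are StringTie 2.1.3b, HISAT2 2.1.0, bcl2fastq 2.20.0 and Trimmomatic, with mm10 as the build. How reads were counted, the strand setting and the handling of reads in repeats are not given here. The deposited files give a read count, FPKM and TPM per gene, per the file headers. Because the step that made them is unknown, the deposited counts, all whole, were handled as estimated counts. The deposited TPM served for levels between genes and an alternative test, and the deposited FPKM for an alternative sum. The columns of Control 2 carry its title with an added 2, and 1 further FPKM column, named after another sample, was not used. Of 26 symbols turned into dates, 26 were restored from gene IDs.

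Groups follow the genotype label. The test was that of edgeR 4.0.16 in R 4.3.3 (quasi-likelihood, TMM, filterByExpr with a minimum count of 10). Genotype was its sole term, and p-values were adjusted by Benjamini-Hochberg over 18115 genes at 0.05. CPM use TMM-scaled library sizes. With 2 against 2 libraries, 0.333 is the smallest two-sided p of an exact permutation test, which was not used. Counting intervals are exact Poisson at 95%.

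Members and lists were chosen with earlier results of these data known; 160 of 165 listed names matched. Named genes are all members, for each list the 2 genes of smallest p on either side that reach 1 CPM on average in their higher group, members at 0 counts, the 2 markers per cell type of highest TPM, and the 3 genes most like Muc13, Muc1 and Muc5ac. Gm15658, Gkn1, Gkn2, Cftr, Bpifb1 and Atp4a were named after their values were seen. A gene that the rule names among the transcription regulators is not reported here. Alternatives were RLE factors, total counts, no filter, DESeq2 1.42.0, limma 3.58.1 with trend on log2(TPM + 1) after a filter on low TPM, and leaving out each library. Tests were tried on simulated data. Coordinates are from RefSeq GRCm38.p6 and GENCODE M21.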

Additional observations from a re-analysis of the deposited data

How the results depend on the processing

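The count of genes called was 0 in each direction with RLE size factors, total counts only, no filter on low counts and limma on TPM, as in the edgeR test reported. DESeq2 called 96 higher and 31 lower, and the cause was not tested. With a library left out edgeR called from 0 to 48 genes higher and from 0 to 44 lower, with 48 and 44 without Smad4 Knockout 1 and 1 higher without Control 1. None of the 8 members other than Muc13 passed in any of these settings. Between scalings the median log2 fold change of all genes moved from -0.00 to 0.02, and no member changed direction. Some directions turned when a library was left out. Muc1 ranged from -0.049 without Control 1 to 0.32 without Control 2, with -0.03 without Smad4 Knockout 1. Muc4 ranged from -0.10 without Control 1 to 0.82 without Control 2, and Muc16 from -1.07 without Smad4 Knockout 1 to 0.17 without Control 2. Muc2 was at 3.40 without Control 1 and at -8.56 without Smad4 Knockout 2, the latter a fitted value against a library at 0 counts that depends on the prior count and is no bound. The filter on TPM left no limma value for Muc16, Muc2, Muc5ac, Muc5b or Muc6, and Muc6 had none without Control 1. Muc13 was at 2.53 on log2(TPM + 1), where the added 1 shrinks low levels, and from 3.69 to 5.25 with a library left out. The log2 ratio of summed TPM was 0.24 for the membrane-bound mucins and 1.22 without Muc1, which still includes Muc13, and from 0.02 to 0.52 with a library left out. For the gel-forming mucins it was 0.84, and from -0.30 to 1.74 with a library left out. List counts without each library were added after seeing the data, and every tested packaging gene stayed above 0, with list medians from 0.96 to 1.67. Medians of the transcription regulators ranged from 0.10 to 0.23, of the secretion genes from 0.04 to 0.10, of the O-glycan enzymes from -0.01 to 0.24 and of the binding partners from -0.08 to 0.01. A fit without a library leaves 1 group with a lone sample, which is assumed to vary like the other group. No paired analysis was possible because the labels number no replicates, so nothing links a Control library to a Smad4 Knockout library. Depth limits Muc2, Muc5ac, Muc5b, Muc6 and Muc16, which had at most 245 counts in any library.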

Other observations

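The protein-coding genes beside Muc13 on chromosome 16 had log2 fold changes from -0.18 to 0.70. Heg1, the nearest protein-coding gene before it, had 2.65 and 4.42 CPM in Control libraries, then 4.86 and 5.80 CPM in Smad4 Knockout libraries (log2 fold change 0.59, SE 0.30, edgeR adjusted p = 0.832). Itgb5, the nearest after it, had 76.0 and 93.0 CPM, then 75.5 and 73.4 CPM (-0.18, SE 0.13, edgeR adjusted p = 0.884). Slc12a8, beyond Heg1, differed by 0.70 on the log2 scale (SE 0.35), and Umps, beyond Itgb5, by 0.02 (SE 0.10). These 4 neighbours were chosen by position after the Muc13 values were known, and whether their differences are smaller than that of Muc13 was not tested.

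Genes with a pattern like that of Muc1 over the 4 libraries were Tigit, Sox21 and Adamtsl5, at root mean square differences of 0.01, 0.02 and 0.02 in centred log2 CPM, against a spread of 0.18 for Muc1. For Muc5ac they were Gstt2, Nat8l and Plut, at 0.10, 0.13 and 0.16, against a spread of 0.64. Nat8l had 10.4 and 4.53 CPM in Control libraries, then 7.78 and 18.9 CPM in Smad4 Knockout libraries. Control 2 was lowest and Smad4 Knockout 2 highest, as for Muc5ac, which follows from choosing genes by likeness to its pattern.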
